A study of Mus musculus with 16 samples.

Results

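Mouse brain was examined after 1 month of a ketogenic diet. The comparison took all 8 RNA-seq libraries that the labels give for the age of 13 months, of 16 libraries in the series. The ketogenic group was made of libraries F, G, H and J, and the control group of A, B, C and E. All mice had been assigned at random to a control or a ketogenic diet at 12 months of age. The other 8 libraries, from mice harvested at 26 months after 14 months on the same diets, entered the expression filter, the scaling, the shared estimate of spread and the values given for 26 months. The labels name no genetic change. They give neither strain nor sex, nor the composition of the diets, nor whether each library came from its own mouse, so p-values cover only the variation among these libraries. The Y-linked gene Ddx3y was detected in all 8, at 51.3 to 73.2 CPM (counts scaled to the size of the library).

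A ketogenic diet replaces most carbohydrate with fat. The liver answers it by turning fatty acids into the ketone bodies beta-hydroxybutyrate and acetoacetate, which monocarboxylate transporters carry from blood into the brain. There the enzymes Bdh1, Oxct1 and Acat1 turn them into acetyl-CoA for the citric acid cycle, in place of part of the glucose. Fatty acids also activate the nuclear receptor PPAR alpha, whose targets include Pdk4 and Cpt1a. The comparison asks which of these genes, and which others, differ in brain RNA early in the diet.

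The libraries held 10348163 to 15642116 counts each. Brain identity was checked with marker lists: all 14 excitatory neuron markers, all 18 astrocyte markers and all 18 myelin genes had counts in each library. Ketogenic library G also held RNA typical of liver. The albumin gene Alb (chromosome 5, 90460897 to 90476602, build mm10) had 1912 counts in G, 12 in H, 4 in F and 0 in J, against 2, 3, 1 and 3 in control libraries A, B, C and E. Of 31 liver genes, which leave out Trf, Vtn and 2 more that brain expresses (a choice made after values were seen), all 31 had counts in G and 14 to 17 in the others. Their summed level was 331 CPM in G and 4.42 to 6.87 CPM in the other libraries. A further difference did not follow the diet. The 18S ribosomal RNA gene took 0.0372% of counts in control C and 0.425% in ketogenic J, against 2.56% to 8.71% in the other 6, and the first principal component (48.02% of variance) set C and J apart from the rest. C and J lie in different groups, so the diet contrast holds 1 such library on each side.

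**Figure D1:**
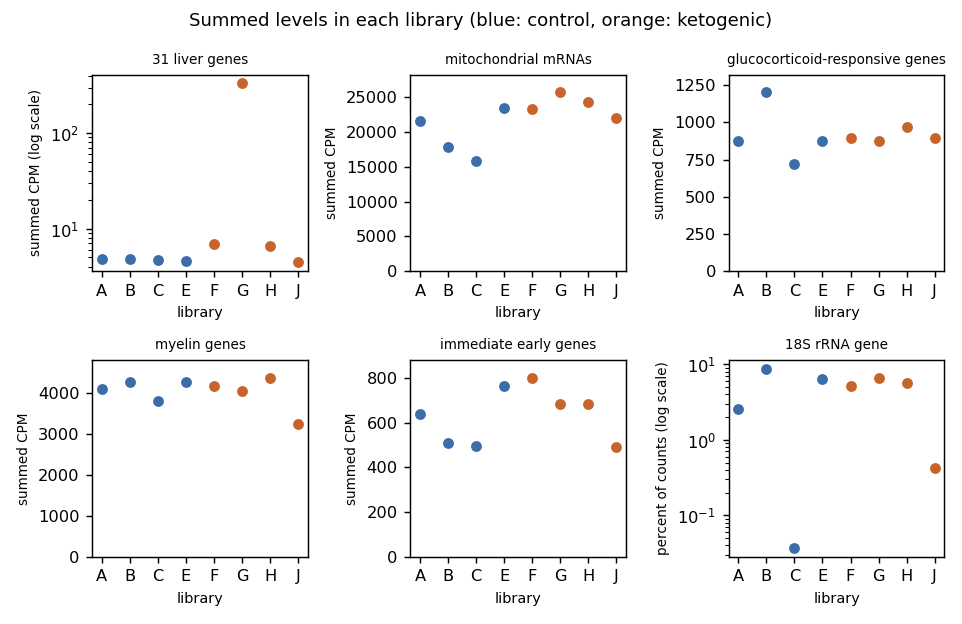
Summed CPM of 5 gene lists and the share of counts of the 18S rRNA gene in each library, with control libraries in blue and ketogenic libraries in orange. The liver genes stand at 331 CPM in G alone, the 18S share is under 1% in C and J, mitochondrial mRNAs are lowest in C and B, and glucocorticoid-responsive genes are highest in B.

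No gene passed the test of ketogenic against control diet. Of 17762 genes tested on their counts with edgeR, none was higher and none lower at an adjusted p below 0.05 (0% called), and the smallest adjusted p was 0.99987. At an unadjusted p below 0.05 there were 357 genes (2.01% of those tested), 160 higher (0.901%) and 197 lower (1.11%) with the ketogenic diet. DESeq2 tested 34973 genes, without the expression filter, and also called none. It had 321 of these genes (0.918%) at an unadjusted p below 0.05 and a smallest adjusted p of 0.612. Of the 17762 genes, 259 (1.46%) had all 4 ketogenic values above or all below the 4 control values, 111 above (0.625%) and 148 below (0.833%). Of the 357 genes, 207 kept an unadjusted p below 0.05 without library G. When the model held a term for libraries low in 18S the number at an unadjusted p below 0.05 was 813 (4.58%), and the smallest adjusted p was 0.212.

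The precision of the comparison can be read from the intervals. The 95% interval of the fold change lay within 1.5-fold in either direction for 11911 genes, 67.1% of those tested, and within 2-fold for 83.7%. Among genes of 10 to 100 CPM the shares were 97.9% and 99.5%, and among genes of 1 to 10 CPM they were 44.2% and 80.9%. Below 1 CPM only 0.1% of intervals lay within 1.5-fold, so for nearly all such genes the interval reached beyond that size. The median absolute change was 0.08 on the log2 scale, and 48 genes had a fitted change above 2-fold.

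**Figure D2:**
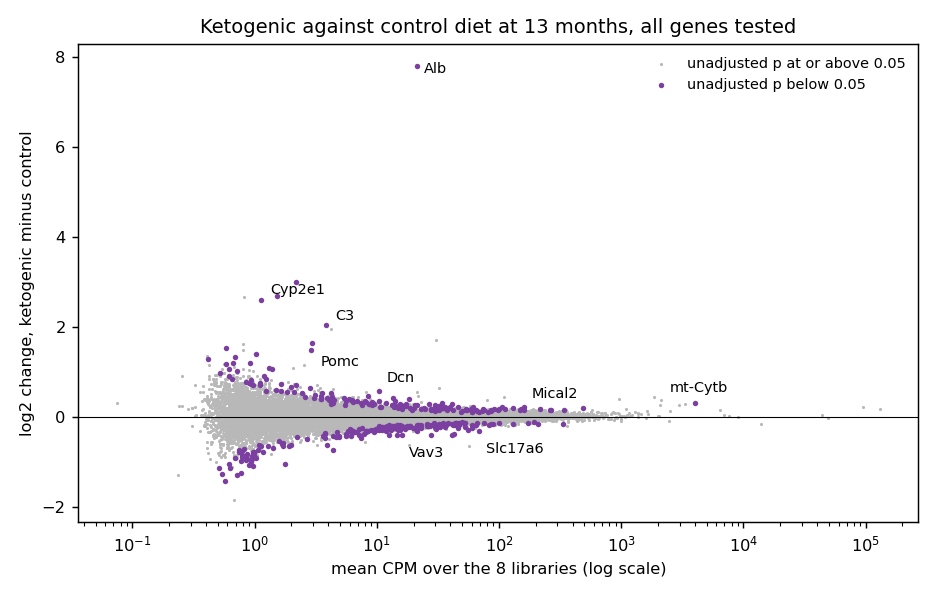
Log2 change (ketogenic minus control) against the mean CPM of the 8 libraries on a log axis, 1 point per gene tested, with the 357 genes at an unadjusted p below 0.05 in purple. Alb stands alone at 7.81, carried by library G, and most genes above 10 CPM lie close to 0.

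The enzymes that use ketone bodies were close to their control levels, with narrow intervals, and none was called. Bdh1, which interconverts beta-hydroxybutyrate and acetoacetate (chromosome 16, 31422280 to 31458901), was at 22.3, 18.8, 22.5 and 21.7 CPM in controls A, B, C and E and at 21.3, 19.2, 23.0 and 21.6 CPM in ketogenic libraries F, G, H and J. The groups overlapped throughout, and the fold change was 0.99 with a 95% interval of 0.89 to 1.12. Oxct1, the step that commits acetoacetate to oxidation (chromosome 15, 4026383 to 4155344), was at 177 ± 8.7 CPM in controls and 172 ± 7.5 CPM on the ketogenic diet (SD, n = 4 each). Its interval ran from 0.90 to 1.05. Acat1, the thiolase that follows it, had a log2 change of -0.07 ± 0.06 (SE). Of the monocarboxylate transporters, Slc16a1, found on brain capillaries and glia, was at 41.1 ± 4.4 and 42.1 ± 4.9 CPM, with an interval of 0.881 to 1.196. Slc16a7, the neuronal form, had an interval of 0.92 to 1.16.

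The ketone body list had 7 members above and 8 below 0, a median log2 change of -0.01, and none of the 15 tested was called, where the median of all genes was 0.00. Hcar2, the receptor for beta-hydroxybutyrate, had at most 2 counts in any of the 8 libraries and was not tested.

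**Figure D3:**
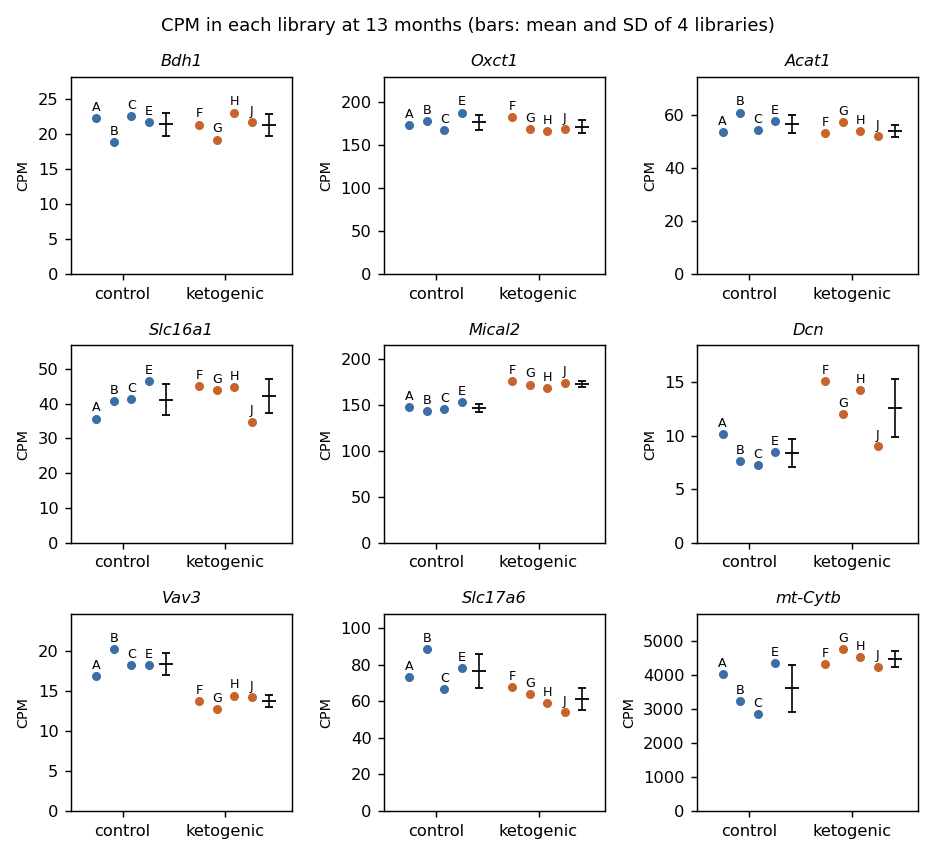
CPM of 9 genes in each library, labelled by its letter, with the mean and SD of the 4 libraries of a group to the right. Bdh1, Oxct1 and Slc16a1 overlap between diets, the groups of Mical2 and Vav3 do not overlap, and mt-Cytb is lowest in controls C and B.

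Targets of PPAR had 18 of 25 tested members above 0, with a median log2 change of 0.10 that was 0.06 without G. None was called. Pdk4, the kinase that shuts off pyruvate dehydrogenase in fasting, was at 7.83 ± 2.1 CPM in controls and 8.17 ± 1.5 CPM on the diet, with an interval of 0.78 to 1.41. Cpt1a, the gate of mitochondrial fatty acid import, had a log2 change of 0.11 ± 0.13, and the lipoprotein lipase inhibitor Angptl4 had 0.01 ± 0.39. Acot1, an acyl-CoA thioesterase, was at 3.71, 4.37, 2.29 and 4.12 CPM in A, B, C and E and 4.996, 4.22, 5.70 and 3.81 CPM in F, G, H and J, with overlapping groups and an unadjusted p of 0.078. The uncoupling protein gene Ucp2 had a log2 change of 0.22 ± 0.18.

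Fatty acid oxidation had 15 of 31 tested members above 0 and a median log2 change of -0.01. The 2 members with an unadjusted p below 0.05 were lower. Echs1, the short-chain enoyl-CoA hydratase, was at 27.6 ± 2.7 and 23.8 ± 1.3 CPM (log2 -0.21 ± 0.08). Acad9, which also assembles complex I, was at 22.7, 22.3, 25.0 and 22.2 CPM in A, B, C and E and 19.6, 21.3, 20.4 and 20.6 CPM in F, G, H and J (log2 -0.17 ± 0.08). Its groups did not overlap, and the highest control was C. The acyl-CoA synthetase Acsl1 (log2 0.10) had all ketogenic values above all control values, at an unadjusted p of 0.11.

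No gene of glucose handling was called. Glycolysis and glucose transport had 6 of 28 members above 0, a median log2 change of -0.02 and none at an unadjusted p below 0.05. The capillary glucose transporter Slc2a1 was at 44.9 ± 4.7 and 44.3 ± 2.8 CPM, with an interval of 0.83 to 1.19, and the neuronal transporter Slc2a3 had an interval of 0.87 to 1.05. The hexokinase gene Hk1 had a log2 change of 0.06 ± 0.07, and Hk2 had -0.21 ± 0.13. Txnip, a glucose-induced inhibitor of thioredoxin, was highest in control B (21.6 CPM, others 8.95 to 15.9) and had an interval of 0.63 to 1.40. For pyruvate dehydrogenase and the citric acid cycle 10 of 33 members were above 0, with a median of -0.03.

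Of the respiratory chain, the nuclear-encoded and mitochondrial parts pointed different ways without any call. Among 51 nuclear-encoded subunits 13 were above 0, with a median log2 change of -0.03, or -0.09 without G. Ndufa9 of complex I (log2 -0.15 ± 0.06) and Atp5g3 of ATP synthase (-0.17 ± 0.06) had an unadjusted p of 0.017 each, with overlapping groups. Library J was the lowest of the 8 for 41 of the 51 subunits, against 18.2% of all genes, and B the highest for 25.

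All 7 mitochondrial mRNAs tested were above 0, with a median log2 change of 0.31. The other 6, mt-Co2 among them, had too few counts to be tested. Whether their RNA or only their counted reads were few was not tested. The smallest p was that of mt-Cytb, the cytochrome b subunit of complex III (mitochondrial genome, 14145 to 15288), at 4026, 3231, 2849 and 4337 CPM in A, B, C and E and 4313, 4755, 4534 and 4245 CPM in F, G, H and J. Controls B and C were low, while A and E lay near or within the ketogenic range. The log2 change was 0.31 ± 0.14 (interval 1.004 to 1.52, unadjusted p = 0.046), and 0.27 without G. For mt-Nd1 of complex I it was 0.28 ± 0.13. Library G was highest for all 7 mRNAs and C lowest for 6. Their summed CPM was 19666 ± 3461 in controls and 23822 ± 1556 on the diet (SD, n = 4 each), with an exact two-sided permutation p of 0.0857, where 4 against 4 allow 0.0286 at the smallest, and of 0.999 after adjustment over 53 such sums. The low place of C depended on the scaling. As a share of unscaled counts, mitochondrial mRNAs took 2.30%, 1.54%, 2.14% and 2.10% in A, B, C and E. In F, G, H and J they took 2.17%, 2.25%, 2.25% and 2.71%. By that share B was lowest and J highest, with an exact permutation p of 0.171. The list median ran from 0.20 to 0.40 when each library was left out in turn, lowest without C. At 26 months all 7 mRNAs were below 0, with a median of -0.38, and for 6 of 7 the difference between the ages had an unadjusted p below 0.05, beside 4.41% of all genes. The smallest adjusted p of that difference in the list was 0.9998.

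No lipid synthesis gene was called. Cholesterol synthesis and uptake had 19 of 29 members above 0 and a median log2 change of 0.02. Lss, which closes the sterol rings, was at 25.9 ± 2.4 and 29.3 ± 2.2 CPM (log2 0.17 ± 0.08, unadjusted p = 0.043), and the sterol reductase Hsd17b7 had a log2 change of 0.25 ± 0.11. Of fatty acid synthesis, Fasn was at 248 ± 30 and 250 ± 32 CPM and Scd2 had an interval of 0.86 to 1.12. The elongase Elovl6 had all ketogenic values above all controls, 45.6 to 48.7 against 42.0 to 44.7 CPM, at an unadjusted p of 0.13.

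No gene of hormone signalling, feeding or the clock was called. Insulin, IGF and FOXO signalling had 27 of 36 members above 0 with a median log2 change of 0.04. Control C was lowest for 21 of the 36 and control E highest for 14, against 18.5% and 13.2% of all genes. Igf1 itself was at 10.5 ± 2.7 and 8.82 ± 0.97 CPM (log2 -0.25 ± 0.18). Among glucocorticoid-responsive genes 14 of 26 were above 0. Control B carried the highest value of 19 of the 26, against 14.5% of all genes. Control C carried the lowest value of 16, against 18.5% of all genes. Sgk1, a kinase induced by glucocorticoids, was at 54.5, 151, 34.2 and 38.8 CPM in A, B, C and E and 40.1, 39.4, 38.7 and 55.3 CPM in F, G, H and J, which gave an interval of 0.29 to 1.38. Hypothalamic feeding peptides had 12 of 25 members above 0. Npy, the appetite-promoting neuropeptide Y, had an interval of 0.78 to 1.13. Pomc, the melanocortin precursor, was at 11.4 CPM in G and 3.61 CPM in F, with 0.90 to 2.29 CPM in the other 6, and its log2 change was 1.49 with G and 0.36 without. The circadian clock had 11 of 21 members above 0 and a median of 0.01. Its member Nr1d2, a repressor in the clock, was at 93.6 ± 7.4 and 84.3 ± 4.9 CPM (log2 -0.15 ± 0.06, unadjusted p = 0.024). Per1, Arntl and Dbp had log2 changes of -0.04 ± 0.15, 0.05 ± 0.11 and -0.17 ± 0.10.

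Neuronal genes were grouped by brain region and by role, and none was called. In bulk tissue, fewer cells of a type and less RNA per cell cannot be told apart, and the same holds for the share of a region in the sample. The list of cortex and hippocampus had 11 of 14 members above 0 and a median log2 change of 0.09. Control C was lowest for 8 of the 14, against 18.5% of all genes. At 26 months 2 of the 14 members were above 0. The list of thalamus and hindbrain had 4 of 12 tested members above 0 and a median of -0.17, which ran from -0.27 to 0.08 when each library was left out, and was above 0 without J. Prkcd, a protein kinase C abundant in thalamus, was at 43.4, 49.0, 45.9 and 57.3 CPM in A, B, C and E and 38.0, 35.6, 35.3 and 40.6 CPM in F, G, H and J, with groups that did not overlap (log2 -0.38 ± 0.13, unadjusted p = 0.010). The list of excitatory neurons, which shares members with that of cortex, had 12 of 14 members above 0 and a median of 0.10. Control C was lowest for 9 of these 14. Fezf2, a transcription factor of deep-layer projection neurons (chromosome 14, 12341892 to 12345865), was at 8.80, 9.53, 6.47 and 12.3 CPM in A, B, C and E and 13.3, 11.2, 10.8 and 11.4 CPM in F, G, H and J. Controls A, B and C lay below all ketogenic libraries and E within their range, and the log2 change was 0.35 ± 0.15 (unadjusted p = 0.032). The lowest member was Slc17a6, the vesicular glutamate transporter of thalamus and brainstem, at 76.5 ± 9.3 and 61.2 ± 5.9 CPM with overlapping groups (log2 -0.32 ± 0.11, unadjusted p = 0.0097). In the model with the 18S term its adjusted p was 0.836.

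No gene of synaptic transmission was called. GABA and glutamate handling had 13 of 23 members above 0 and a median of 0.01. Its lowest members were the vesicular glutamate transporters Slc17a6, with the values given above, and Slc17a8, at 4.12 ± 0.81 and 2.88 ± 0.81 CPM with overlapping groups (log2 -0.51 ± 0.25, unadjusted p = 0.056, and 0.013 without G). The GABA-synthesizing enzyme Gad1 was at 288 ± 27 and 289 ± 19 CPM, with an interval of 0.91 to 1.11. Of 34 GABA-A and glutamate receptor subunits 21 were above 0. The AMPA receptor subunit Gria1 was at 325 ± 16 and 359 ± 25 CPM (log2 0.15 ± 0.06), and the extrasynaptic GABA-A subunit Gabrd at 35.5 ± 3.3 and 30.7 ± 3.1 CPM (-0.21 ± 0.09). Synaptic proteins had 25 of 31 members above 0 at a median of 0.05. Control C was lowest for 19 of the 31, against 18.5% of all genes. Pclo, a scaffold of the presynaptic active zone, had all ketogenic values (473.8 to 594.7 CPM) above all controls (408.1 to 473.5 CPM), with a log2 change of 0.20 ± 0.08. Immediate early genes, which neuronal activity induces, had 20 of 26 members above 0 and a median of 0.14, with none at an unadjusted p below 0.05. Ketogenic library F was highest for 14 of them, against 7.52% of all genes. Bdnf, an activity-dependent neurotrophin, was at 13.6 ± 1.3 and 15.5 ± 1.6 CPM (log2 0.19 ± 0.11).

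**Figure D4:**
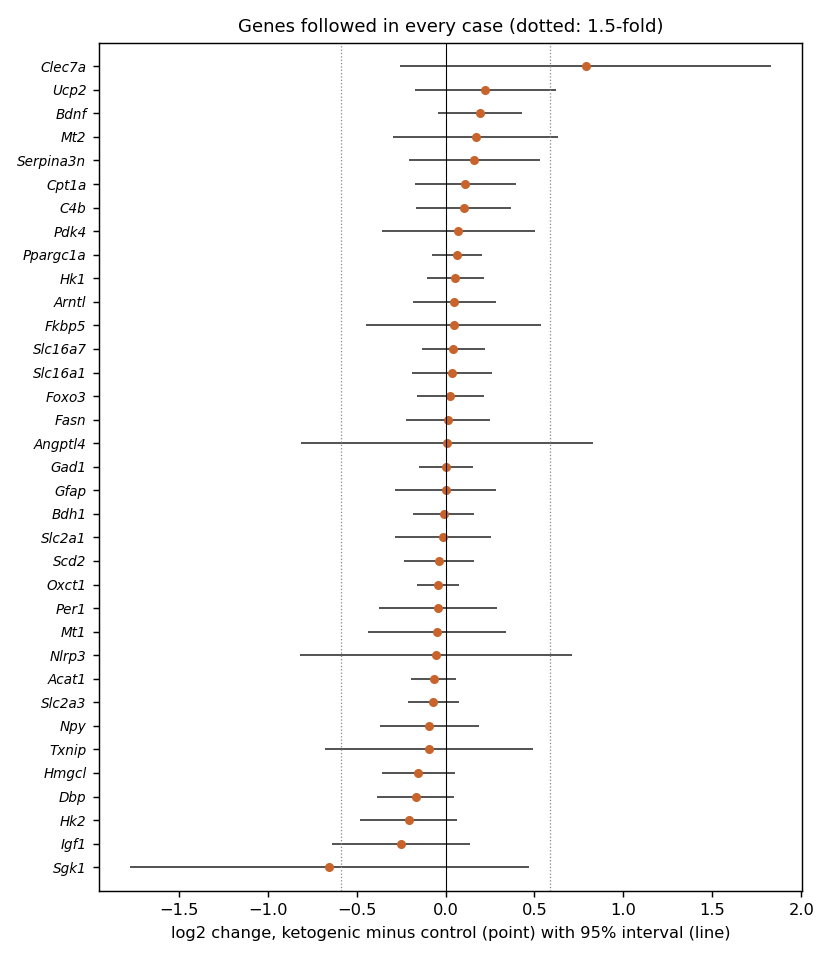
Log2 change with its 95% interval for 35 of the genes that were followed in every case, with dotted lines at 1.5-fold and Alb not drawn. All 35 intervals include 0.

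No glial or immune gene was called. Gfap, the intermediate filament of astrocytes, was at 122 ± 17 and 122 ± 19 CPM, with an interval of 0.83 to 1.21. C4b, a complement gene with a near-identical copy, had a log2 change of 0.10 ± 0.12, and the reactive astrocyte gene Serpina3n 0.16 ± 0.17. None of 22 reactive astrocyte, 25 disease-associated microglia, 16 homeostatic microglia or 30 interferon and antigen presentation genes had an unadjusted p below 0.05. The inflammasome sensor Nlrp3 was near the limit of detection, at 0.917 ± 0.33 and 0.847 ± 0.31 CPM, and its interval was 0.57 to 1.63. C3, a complement gene that liver secretes, was at 19.8 CPM in G and 0.897 to 2.61 CPM in the other 7. Its log2 change was 2.04 with G and 0.22 without. Myelin genes had 4 of 18 members above 0, with a median of -0.05, and J was lowest for 17 of the 18. At 26 months all 18 were above 0, with a median of 0.19. For the difference between the ages 3 of 18 had an unadjusted p below 0.05, beside 4.41% of all genes. The smallest adjusted p among the 18 was 0.9998 in the model without the 18S term.

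Of the vessels and membranes of the brain, the list of meningeal fibroblasts had 12 of 13 members above 0 and a median log2 change of 0.28, while the summed CPM (111 ± 20.7 and 127 ± 15.4, SD, n = 4 each) gave an exact permutation p of 0.286. Dcn, the collagen-binding proteoglycan decorin (chromosome 10, 97479500 to 97518162), was at 10.2, 7.63, 7.25 and 8.44 CPM in A, B, C and E and 15.1, 12.1, 14.3 and 9.05 CPM in F, G, H and J. Ketogenic J lay below control A and the other 3 exceeded all controls, and the log2 change was 0.58 ± 0.15 (fold 1.497, interval 1.21 to 1.86, unadjusted p = 9.73e-04). Bgn, its relative biglycan, had a log2 change of 0.35 ± 0.14 (unadjusted p = 0.022). Control C was lowest for 8 of the 13 members, and without C the median was 0.19. At 26 months the list median was -0.01. Endothelial cells had 9 of 18 members above 0 and a median of 0.00, and pericytes and smooth muscle 5 of 14.

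Over all lists other than liver, 23 of 935 distinct members tested (2.46%) had an unadjusted p below 0.05, beside 2.01% of all genes. In 9 of them (0.963%) the groups did not overlap, beside 1.46% of all genes.

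**Figure D5:**
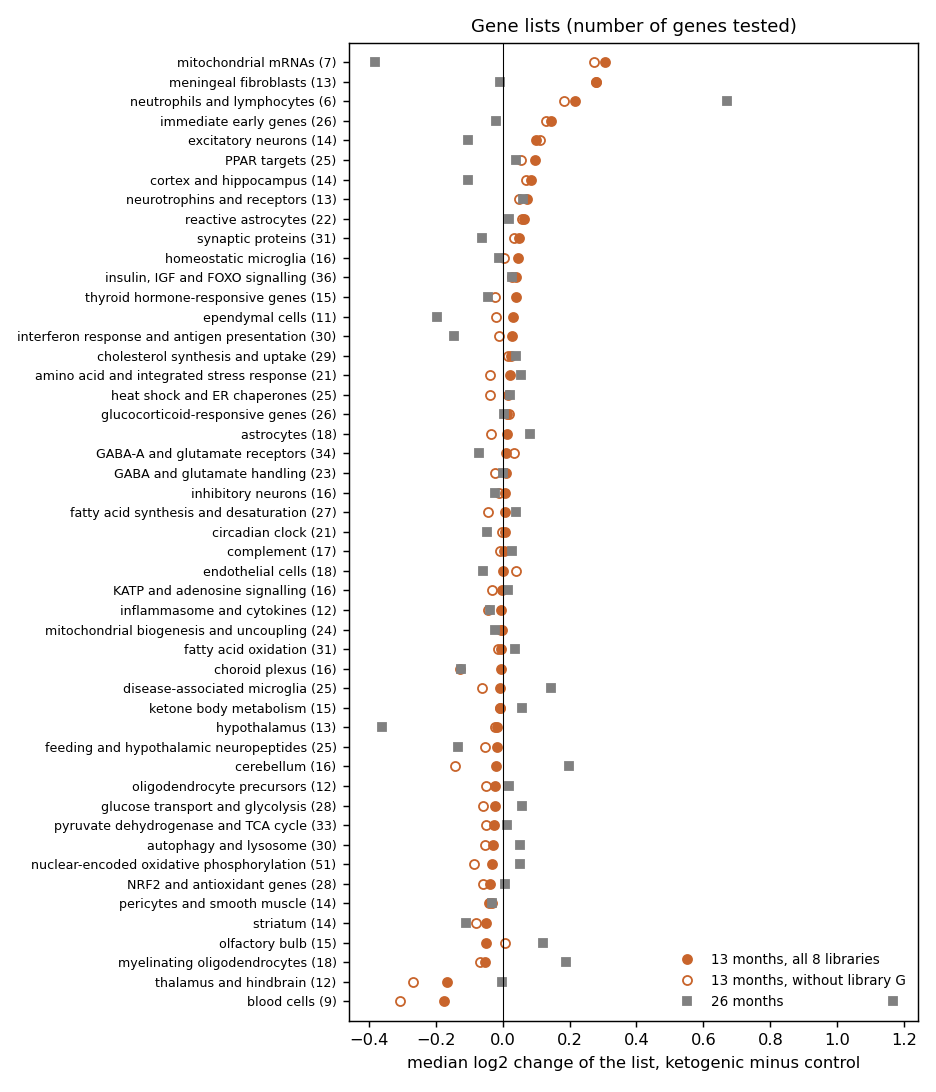
Median log2 change (ketogenic minus control) of each list with at least 6 genes tested, without liver, at 13 months with all 8 libraries (filled circles), without library G (open circles) and at 26 months (squares). Mitochondrial mRNAs (0.31) and meningeal fibroblasts (0.28) have the highest medians at 13 months, and most lists lie within 0.1 of 0.

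The genes with the smallest unadjusted p had narrow group ranges rather than large changes. Mical2, a monooxygenase that oxidizes actin (chromosome 7, 112225856 to 112355194), was at 147, 143, 145 and 153 CPM in A, B, C and E and 176, 172, 169 and 174 CPM in F, G, H and J. All ketogenic values exceeded all controls. The log2 change was 0.23 ± 0.06 (fold 1.17, interval 1.08 to 1.28, unadjusted p = 6.33e-04), and 0.23 without G. In the model with the 18S term, Mical2 and Dcn had an adjusted p of 0.212. The other genes of at least 1 CPM that ranked highest included Tut1, a uridylyltransferase (0.26 ± 0.08), Fgf11, an intracellular FGF (0.24 ± 0.07), and Ppif, the mitochondrial cyclophilin D (0.27 ± 0.09). The groups of Tut1, Fgf11 and Ppif did not overlap. Cyp2e1 and Alb, which also ranked among them, are genes of liver and had their highest value in G.

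Among the lower genes, Vav3, an exchange factor for Rac and related small GTPases (chromosome 3, 109340653 to 109685698), was at 16.8, 20.2, 18.2 and 18.2 CPM in A, B, C and E and 13.7, 12.8, 14.4 and 14.2 CPM in F, G, H and J. Its groups did not overlap, and the log2 change was -0.41 ± 0.12 (fold 0.75, interval 0.63 to 0.90, unadjusted p = 0.0031). Rab37, a small GTPase of secretory vesicles, had a log2 change of -0.39 ± 0.11, and Plekhg1, a further GTPase exchange factor, -0.39 ± 0.12. Lamtor4, of the Ragulator complex that anchors mTORC1 to lysosomes, was at 12.2 ± 0.63 and 10.2 ± 0.12 CPM (log2 -0.26 ± 0.08). The Y-linked gene Ddx3y was also among them, at 64.9 ± 5.9 and 54.5 ± 3.0 CPM with groups that did not overlap (log2 -0.25 ± 0.07, unadjusted p = 0.0031). The lower genes taken by this rule were 12, with the largest log2 change, -0.43, in Commd5, and their groups overlapped only in Vps16. Since genes were taken by their p, that count is a description of the choice.

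The diet change at 13 months was also set against that at 26 months, which rests on other libraries. No gene had a different diet change at the 2 ages at an adjusted p below 0.05 (0% called), with 783 (4.41%) at an unadjusted p below 0.05. The diet at 26 months had 0 genes called and 953 (5.37%) at an unadjusted p below 0.05. With the term for libraries low in 18S, 9 genes were called higher and 5 lower at 26 months, and without those libraries 21 higher and 37 lower. Of the 357 genes at 13 months, 22 (6.16%) were among those 953, and 7 of the 22 had the same sign at both ages. The smallest p for a difference between the ages belonged to Kcnk13, a background potassium channel, with log2 changes of -0.33 ± 0.11 at 13 months and 0.45 at 26 months. Cnksr2, a synaptic scaffold, had 0.17 ± 0.06 and -0.19. In the model with the 18S term 2 genes were called for this difference, at an adjusted p of 0.0326 each. They were Mag, the myelin-associated glycoprotein (13 minus 26 months -0.48 ± 0.08 on the log2 scale), and the mitochondrial transfer RNA mt-Tp (0.77 ± 0.14). With 1 library of 13 months left out, this model called 6 genes with a higher and 7 with a lower value without A, 6 and 3 without E, and none without C or G. Mag was no longer called without C, F, G or J, and mt-Tp without B, C, F, G or H.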

How the data were processed

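Brain RNA was sequenced in 16 libraries, 4 per group, and the 8 of the age of 13 months were compared. Per the labels, total RNA was purified with Qiazol and columns, treated with DNase I, and made into strand-keeping libraries. The authors deposited raw read counts for 48440 genes. FastQC, Trimmomatic and STAR were used with build mm10, per the submitters' processing notes. The counting program, its strand setting and annotation (not given in the sources used here) leave overlapping, antisense and near-identical genes uncertain. Counts were tested with edgeR 4.0.16 (R 4.3.3) in a quasi-likelihood model with 4 group means on all 16 libraries, after the default expression filter (17762 genes) and TMM scaling. Calls are genes whose adjusted p (Benjamini-Hochberg) was below 0.05. CPM are edgeR's scaled counts, on TMM library sizes. The SE is the absolute log2 change over the square root of F. Summed CPM of a list was compared by exact permutation. Within groups, no 2 libraries agreed within sampling noise (chi-square per degree of freedom 3.68 to 146 over 12 pairs). Alternatives were other scaling, filters, DESeq2 1.42.0, a term for libraries under 1% 18S counts, and each library left out.

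The members, 52 gene lists and 40 genes followed in every case were chosen with earlier results of these data known. Named genes are up to 12 per direction, by adjusted p or, where fewer than 5 passed, by unadjusted p at a mean of at least 1 CPM, 2 to 4 per list by the same order, the 40 genes, and up to 8 by the test of diet by age. Names outside this rule (Acsl1, Cps1, Pck1, Mag, mt-Tp, mt-Nd6, Gm10801) were chosen after their values were seen. Some genes of the rule are not reported here. Intervals cover the spread between libraries. Coordinates are those of the deposited table, with starts raised by 1. The model was tested on simulated data.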

Additional observations from a re-analysis of the deposited data

Results flagged for a closer look

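In 420 groups of 4 libraries (149 named genes and 61 library measures in both groups), 23 had a highest or lowest library whose gap to its nearest neighbour exceeded Dixon's 95% critical share of the group's range. Chance flags about 1 in 20 groups. The gap shares are given in brackets.

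Library G accounted for 5. Its values were 168 CPM of Alb (0.993) and 1912 Alb counts (0.994), 331 CPM summed over the 31 liver genes (0.993), 6.07 CPM of Cyp2e1 (0.867) and 19.8 CPM of C3 (0.980). The other 3 ketogenic libraries had at most 1.12, 12, 6.87, 1.04 and 1.96. Cps1, the first enzyme of the urea cycle, had 167 counts in G and 3 to 14 in the other 7 libraries. Without G the log2 changes of Alb, Cyp2e1 and C3 were 1.18, 0.94 and 0.22, and none of the 3 was called with or without it.

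Library J, with low 18S counts, accounted for 7. It was high for Fkbp5 (27.8 CPM, others 20.3 to 20.5, 0.978), Sgk1 (55.3 CPM, others 38.7 to 40.1, 0.915) and the mitochondrial mRNA share of counts (2.71%, others 2.17% to 2.25%, 0.844). It was low for Slc16a1 (34.8 CPM, 0.882), Scd2 (836 CPM, 0.838) and the summed CPM of circadian clock genes (1200 CPM, 0.833) and disease-associated microglia genes (1249 CPM, 0.845). Control C, the other library with low 18S counts, was high for Acad9 (25.0 CPM, 0.835) and Phldb1 (116 CPM, 0.851) and low for Igfbp3 (4.05 CPM, 0.967) and Npy1r (9.41 CPM, 0.848).

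Control B was high for Arrdc2 (16.6 CPM, others 6.88 to 7.78, 0.908) and low for Myh2 (0.449 CPM, 0.944). Ketogenic F was high for Elovl6 (48.7 CPM, 0.922), Oxct1 (183 CPM, 0.851) and Tie1 (5.62 CPM, 0.835). Ketogenic H was high for Clec7a (1.31 CPM, 0.838), and control E for Anpep (3.82 CPM, 0.865).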

How the results depend on the processing

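Called genes at 13 months numbered 0 with RLE size factors, without a filter, and with a filter of at least 1 CPM. They also numbered 0 with DESeq2, with the 13-month libraries alone, and without each of the 8 libraries. A test of the main fit against a fold of 1.2 is stricter than the main test, so its 0 calls were fixed in advance. The count was also 0 in the model with a term for libraries low in 18S. With that term and without F, 1 gene was higher, Gm10801 (log2 1.87 ± 0.29, edgeR adjusted p = 0.00894), with 392 counts in J, 87 in C and 1 to 7 in the other 6. The count of genes with a different diet change at 13 and 26 months, 0 in the model without the term, was 2 with it and 2 without the low-18S libraries, and 0 with the term and without G. The 2 genes were not the same: mt-Tp was called in both cases, and without the low-18S libraries mt-Nd6 was called and Mag was not. The difference in summed CPM of glucocorticoid-responsive genes was -10.1 with all libraries and ran from -75.5 without C to 84.4 without B. Of 2794 values of named genes under alternatives, 2784 moved by less than the replicate spread, whatever their direction. The other 10 moved further, 6 of these by leaving out G. The 2784 include the test against a fold of 1.2, which keeps the fitted log2 changes and so could not move them. No paired analysis was possible because the letters that name libraries differ between the groups. Of the 1992 genes with a mean below 1 CPM, 2 had an interval within 1.5-fold, and the parts of depth and of spread between libraries in this were not tested.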

Other observations

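Control B carried high values of genes that glucocorticoids induce. It was highest of the 8 libraries for 19 of 26 list members, which included Sgk1 (151 CPM), Fkbp5 (30.5 CPM), Arrdc2 (16.6 CPM) and the metallothionein gene Mt1 (146 CPM, others 75.7 to 111). The summed level of the list was 1202 CPM in B, 722 to 875 CPM in the other controls and 877 to 967 CPM in the ketogenic libraries. Immediate early genes were at 802 CPM in ketogenic F and 493 to 764 CPM in the other 7 libraries.

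The regional lists differed among libraries of the same diet. Cerebellar genes ran from 725 CPM in ketogenic J to 1258 CPM in ketogenic G, and J was lowest for 14 of 16. Olfactory bulb genes ran from 387 CPM in control B to 601 CPM in control C, and B was lowest for 11 of 15. Choroid plexus genes ran from 378 CPM in control C to 1201 CPM in control B. Blood cell genes summed to 674 CPM in control C and 229 to 433 CPM in the other 7.

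Mertk, a phagocytic receptor of microglia and astrocytes, was at 76.5 CPM in ketogenic H and 21.8 to 32.7 CPM in the other 7 libraries. Pck1, an enzyme of gluconeogenesis, had 70 counts in G, 24 in F and 0 to 2 in the other 6.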
